A study of Mus musculus with 8 samples.

Results

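The 7 mRNAs mt-Nd1, mt-Nd2, mt-Nd3, mt-Nd4, mt-Nd4l, mt-Nd5 and mt-Nd6 encode the subunits of respiratory complex I that the mouse makes inside its mitochondria. They were taken by Ensembl identifier from a count table of 22430 genes, in which all 7 were present and passed the filter on low counts. The table comes from ONT direct RNA sequencing of brain hemispheres of male mice of the inbred C57Bl/6JRj strain, without genetic change or treatment. There were 4 young adult mice of 6 months (6m) and 4 aged mice of 24 months (24m), with 1 library per mouse. The labels name a poly(A) cDNA kit while the study's methods describe direct RNA sequencing, in which each molecule passes through the pore from its 3′ end; the methods are followed here. Whole tissue was lysed, so that fewer cells of a type, fewer mitochondria per cell and less RNA per mitochondrion cannot be told apart.

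Complex I, or NADH dehydrogenase, takes electrons from NADH, passes them to ubiquinone and pumps protons across the inner mitochondrial membrane, which neurons depend on for most of their ATP. The subunits encoded in mitochondrial DNA form the core of the membrane arm that pumps protons, while the NADH-oxidizing arm is built from nuclear-encoded proteins. Both strands of the circular mitochondrial genome are transcribed as long precursors, which are cut at the tRNAs that lie between most of the mRNAs. All members except mt-Nd6 are transcribed from the same strand as the other mitochondrial mRNAs, and mt-Nd6 comes from the opposite strand and, in mammals, is known to carry little or no poly(A) tail.

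In GRCm39, the build to which the reads were mapped, the genes lie on the mitochondrial chromosome without introns, and GENCODE vM39 annotates each from its first codon to its stop. mt-Nd1 (ENSMUSG00000064341) spans bases 2751 to 3707 on the plus strand and encodes 318 amino acids. mt-Nd2 (ENSMUSG00000064345) spans 3914 to 4951 and encodes 345. mt-Nd3 (ENSMUSG00000064360), at 9459 to 9806 with 115 codons, is among the shortest. mt-Nd4l (ENSMUSG00000065947), at 9877 to 10173, is the shortest with 98 codons. mt-Nd4 (ENSMUSG00000064363) follows at 10167 to 11544 with 459 codons. mt-Nd5 (ENSMUSG00000064367), at 11742 to 13565, is the longest with 607 codons. mt-Nd6 (ENSMUSG00000064368) lies on the minus strand at 13552 to 14070 and encodes 172 amino acids.

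There are 2 pairs of members that share bases, and their sequences are shown because several results below turn on them. mt-Nd4l and mt-Nd4 are read from a single mRNA, and the start codon of mt-Nd4 lies within the last codons of mt-Nd4l. The plus strand around the 7 shared bases (chrM:10159-10181, shared bases in capitals) reads as follows.
mt-Nd4l and mt-Nd4: ctactacaATGCTAAaaattatt
mt-Nd5 and mt-Nd6 face each other on opposite strands and end in the same 14 bases, shown in capitals on the plus strand (chrM:13544-13573), with the stop codon of mt-Nd5 at the end of the capitals.
mt-Nd5 and mt-Nd6: atactcaaTTAATCTCGAGTAAtctcgata
The mt-Nd5 mRNA is known to run on beyond its stop codon across the antisense of mt-Nd6. The gene mt-Nd4 also differs at its other end, since its last annotated base is a single T (in capitals below, chrM:11521-11544) and the stop codon is completed by the poly(A) tail, whereas mt-Nd4l ends in a full stop codon (chrM:10150-10173).
mt-Nd4 end: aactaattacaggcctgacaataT
mt-Nd4l end: aatctcaacctactacaatgcTAA

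Nuclear DNA holds copies of some of these genes, so that reads from them can map to more than a single place. With a minimum of 95% identity over 50% of the gene, mt-Nd4l had a copy over its whole length at 100% identity on chromosome 1 (24651485 to 24651781). The same stretch of chromosome 1 held 345 bases of mt-Nd3 and 876 bases of mt-Nd4, both at 100% identity. For mt-Nd5 a copy of 955 aligned bases on chromosome 13 had 95.2% identity, and mt-Nd1, mt-Nd2 and mt-Nd6 had none at this limit. How the counting treated such reads is not stated in the sources used here.

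The libraries held between 573152 and 843706 counts on genes at 6m and between 660398 and 1255424 at 24m. Of these, the members together took between 11091 and 17615 counts at 6m and between 6910 and 21136 at 24m, so that counting error is small beside the spread between mice. Levels are given as CPM, a gene's counts divided by its library's total and brought to a common scale with edgeR's TMM factors, and changes as log2FC, 24m minus 6m. A gene passed the test when its p, adjusted by Benjamini-Hochberg, was 0.05 or less in edgeR's quasi-likelihood test over 9375 genes, and was called changed only if |log2FC| was also at least 0.58, the limits of the study. No batch, date or flow cell is given by the labels.

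All 7 members had a negative log2FC at 24m, with a median of -0.46 against -0.003 over all tested genes. The mRNAs mt-Nd1, mt-Nd2, mt-Nd3 and mt-Nd4 fell, each with an adjusted p at most 0.05 (edgeR), while mt-Nd5, mt-Nd6 and mt-Nd4l did not pass. Over all tested genes, 9.42% were lower by this limit, against 4 of the 7 members. With the fold minimum, 0 of the 7 members were called lower, where 4.17% of all tested genes were called lower and 10.3% higher. At an unadjusted p under 0.05 there were 6 members in edgeR and 4 in DESeq2, all lower. The share of all tested genes under this limit is not given here, so nothing is concluded from these counts. The 6 include mt-Nd5 and mt-Nd6, whose counts were nearly equal in every library, as described below. The falls were thus of modest size, with aged means between 67.9% and 72.4% of the young adult means for the 4 genes that passed.

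mt-Nd1, which lines the ubiquinone-binding site where the membrane arm meets the other arm, had 5239, 5916, 6562 and 4136 CPM in the young adult libraries 1 to 4 and 2879, 3936, 3691 and 4335 CPM in the aged libraries. The ages overlapped only through young adult replicate 4, which lay below aged replicate 4. The mean fell from 5463 ± 1036 to 3710 ± 614 CPM (± SD over 4 mice per age). The log2FC was -0.56 with an SE of 0.122 (edgeR adjusted p = 0.00207).

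mt-Nd2, a subunit of the proton-pumping arm, had 2267, 2345, 2785 and 1626 CPM at 6m and 1381, 1656, 1433 and 1875 CPM at 24m. Young adult replicate 4 again lay among the aged libraries, below replicates 2 and 4. The mean fell from 2256 ± 478 to 1586 ± 226 CPM (± SD over 4 mice per age; log2FC -0.50, SE 0.121, edgeR adjusted p = 0.00403).

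mt-Nd3, a small subunit with a loop next to the ubiquinone site, was the only member whose ages did not overlap. Its values were 3179, 3372, 3485 and 3163 CPM at 6m and 1762, 2598, 2173 and 3029 CPM at 24m. Over all tested genes, every aged library lay below every young adult library for 9.96%. The spread of mt-Nd3 was narrow in the young mice and wide in the aged mice, with coefficients of variation of 4.72% and 22.8%. The mean fell from 3300 ± 156 to 2390 ± 546 CPM (± SD over 4 mice per age; log2FC -0.46, SE 0.114, edgeR adjusted p = 0.00531).

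mt-Nd4, an antiporter-like subunit that moves protons, had 4276, 4540, 4968 and 2923 CPM at 6m and 2088, 3199, 2637 and 3426 CPM at 24m. Aged replicates 2 and 4 lay above young adult replicate 4, and all aged libraries lay below the other young adult libraries. The mean fell from 4177 ± 883 to 2838 ± 600 CPM (± SD over 4 mice per age; log2FC -0.55, SE 0.135, edgeR adjusted p = 0.00471).

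mt-Nd4l, the small subunit encoded just upstream on the same mRNA, had 1100, 1217, 1279 and 713 CPM at 6m and 729, 1264, 1011 and 1176 CPM at 24m. Its ages overlapped over nearly their whole range. The means were 1078 ± 254 and 1045 ± 236 CPM (± SD over 4 mice per age; log2FC -0.04, SE 0.143, edgeR adjusted p = 0.889), and the sign changed between settings, from -0.18 to 0.39.

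mt-Nd5, the antiporter-like subunit at the far end of the membrane arm, had 1217, 1309, 1414 and 927 CPM at 6m and 829.2, 1126, 969 and 1172 CPM at 24m. Only aged replicate 1 lay below all young adult libraries. The log2FC was -0.24 (SE 0.114, edgeR adjusted p = 0.131), from 1217 ± 209 to 1024 ± 156 CPM (± SD over 4 mice per age). mt-Nd6, a small subunit of the membrane arm, had nearly the same values, with 1299, 1354, 1430 and 912 CPM at 6m and 864, 1165, 966 and 1199 CPM at 24m. Its log2FC was -0.25 (SE 0.117, edgeR adjusted p = 0.138), from 1249 ± 231 to 1049 ± 160 CPM (± SD over 4 mice per age). Without young adult replicate 4, both passed, mt-Nd5 with a log2FC of -0.35 (edgeR adjusted p = 0.0339) and mt-Nd6 with -0.36 (edgeR adjusted p = 0.0246).

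**Figure D1:**
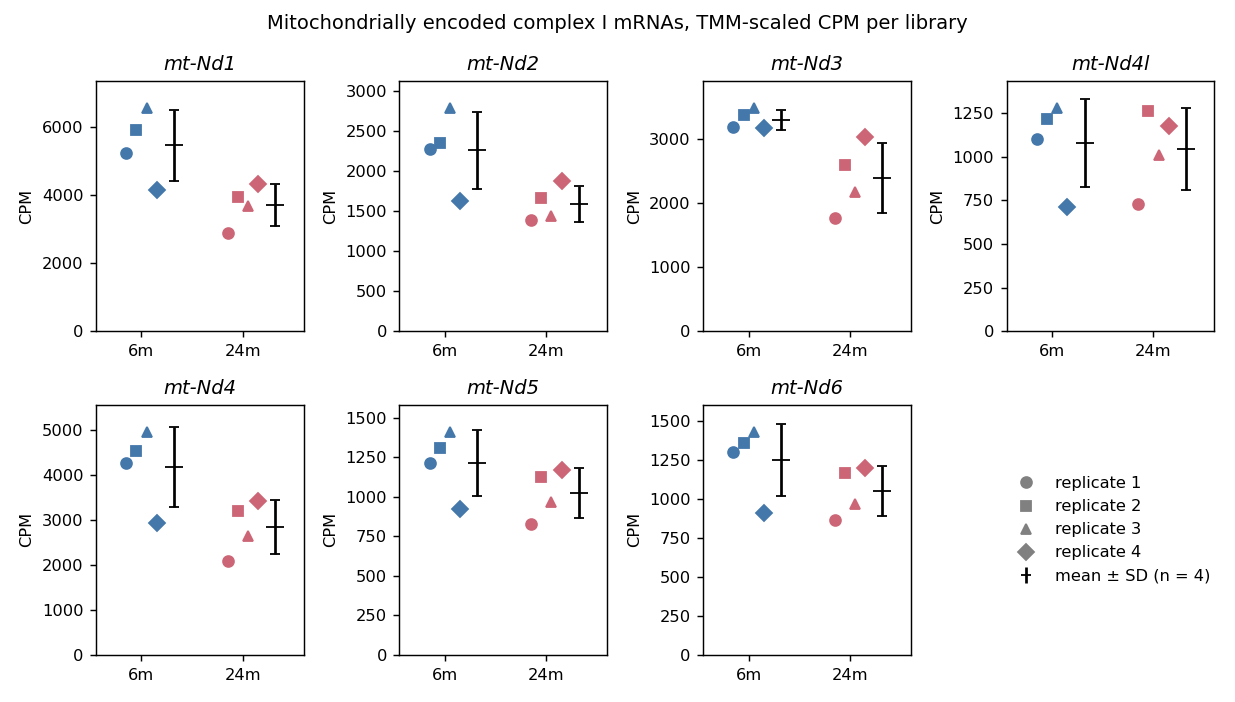
TMM-scaled CPM of each member (y axis, from 0) in the 4 young adult (6m, blue) and 4 aged (24m, red) libraries, with marker shapes for replicates and black bars for mean ± SD. The ages are apart for mt-Nd3, young adult replicate 4 lies among the aged libraries for mt-Nd1, mt-Nd2, mt-Nd4, mt-Nd5 and mt-Nd6, and for mt-Nd4l the ages overlap over nearly their whole range.

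The members moved together from mouse to mouse. Young adult replicate 3 was the highest of its age for all 7 and young adult replicate 4 the lowest for all 7, and aged replicate 1 was the lowest of its age for all 7, while aged replicate 4 was the highest for 6. After subtraction of the age means, Pearson r of log2 CPM over the 8 libraries had a median of 0.955 over the 21 pairs of members (0.636 to 0.997). These correlations describe libraries that share their scaling. Since young adult replicate 4 and aged replicate 1 are low for every member, values without them are given here. Without young adult replicate 4, mt-Nd1, mt-Nd2 and mt-Nd4 passed both limits and were called lower (log2FC -0.66, -0.63 and -0.68). Without aged replicate 1, the log2FC was -0.44 for mt-Nd1, -0.43 for mt-Nd2, -0.33 for mt-Nd3 and -0.42 for mt-Nd4, and all 4 still had an adjusted p at most 0.05 (edgeR). mt-Nd1 and mt-Nd4 were also called lower without aged replicate 2 (log2FC -0.58 and -0.61) and without aged replicate 4 (log2FC -0.62 and -0.64).

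The fall of the 4 members was relative to the other genes of each library and depended on the scaling and the test. Counts of the 7 members made up 1.81 ± 0.30% of all gene counts at 6m and 1.42 ± 0.28% at 24m (± SD over 4 mice per age), with ranges of 1.40% to 2.10% and 1.05% to 1.68% that overlapped. With quantile normalization, a step of the study's count preparation that gives every library the same set of values, DESeq2 gave log2FC of -0.32, -0.24, -0.19 and -0.25 for mt-Nd1, mt-Nd2, mt-Nd3 and mt-Nd4 and passed none of the 4 (lowest adjusted p = 0.0513). On the same scaling limma-voom passed mt-Nd1 alone, and DESeq2 on the raw counts passed mt-Nd1, mt-Nd2 and mt-Nd3 but not mt-Nd4 (adjusted p = 0.0678), whose log2FC of -0.55 was the same as in edgeR.

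The members differed widely in level, and their order depended on the scale. In CPM, which counts reads whatever their length, mt-Nd1 was the highest member at 6m, followed by mt-Nd4 and mt-Nd3, and mt-Nd1 lay above mt-Nd3 in all 8 libraries. Compared per length, as CPM per kilobase of the annotated gene, this order turned. At 6m, mt-Nd3 then had the highest level with 9482 ± 447 CPM per kilobase, followed by mt-Nd1 with 5709 ± 1083, mt-Nd4l with 3628 ± 855, mt-Nd4 with 3031 ± 641, mt-Nd6 with 2406 ± 445, mt-Nd2 with 2173 ± 460 and mt-Nd5 with 667 ± 115 (SD, n = 4). In the aged mice mt-Nd3 was again the highest, at 6869 ± 1568 CPM per kilobase, and mt-Nd5 the lowest, at 561 ± 86. Per kilobase, mt-Nd3 lay above mt-Nd1 in all 8 libraries, by 1.46 to 2.10 times, and mt-Nd2 lay above mt-Nd5 in all 8, by 2.58 to 3.46 times. The ranges of mt-Nd4l and mt-Nd4, of mt-Nd4 and mt-Nd6 and of mt-Nd6 and mt-Nd2 overlapped between mice at both ages. Within a library, mt-Nd4l was nevertheless above mt-Nd4 per kilobase in all 8 libraries, by 1.13 to 1.83 times, and mt-Nd6 above mt-Nd2 in all 8, by 1.03 to 1.41 times, while mt-Nd4 was above mt-Nd6 in 4 of 4 young adult and 3 of 4 aged libraries. A nanopore read stands for a molecule whatever its length, so that a scale per kilobase raises the short genes.

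The 6 other mitochondrially encoded mRNAs were examined to see whether the change was shared. All 13 together made up 9.96 ± 0.94% of gene counts at 6m and 7.99 ± 1.10% at 24m (± SD over 4 mice per age). mt-Co1, the catalytic subunit of complex IV, fell from 21501 ± 1880 to 14388 ± 1585 CPM (± SD over 4 mice per age; log2FC -0.58, edgeR adjusted p = 0.000287) without overlap of the ages. mt-Co2 was the only mitochondrial mRNA called lower (log2FC -0.64, edgeR adjusted p = 0.00027). mt-Co3 (log2FC -0.43, adjusted p = 0.00345) and mt-Cytb of complex III (log2FC -0.44, adjusted p = 0.0145) also fell in the same edgeR test. The ATP synthase mRNAs did not pass, with log2FC of -0.20 for mt-Atp6 and 0.21 for mt-Atp8. The median log2FC of these 6 mRNAs was -0.44, close to that of the members.

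**Figure D2:**
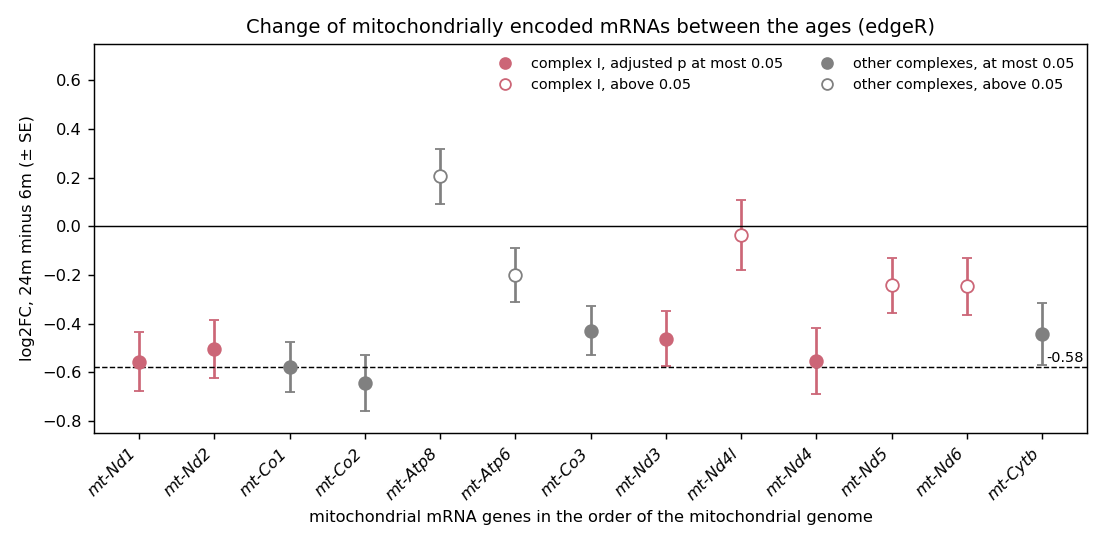
log2FC ± SE (24m minus 6m, edgeR) of the 13 mitochondrially encoded mRNAs, placed in the order of the mitochondrial genome. Filled points have an adjusted p at most 0.05 and the dashed line marks -0.58. Members (red) lie between -0.56 and -0.04, and mt-Nd4l and mt-Atp8, each the upstream reading frame of a shared mRNA, lie above their partners mt-Nd4 and mt-Atp6.

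Within the mitochondrial mRNA pool the members' share differed little, at 18.0 ± 1.47% of the counts of the 13 mRNAs at 6m and 17.6 ± 1.23% at 24m (± SD over 4 mice per age), a difference smaller than the spread between mice. When library sizes were set to this pool, changes were relative to all 13 mRNAs, the members included. None of the 7 then passed in edgeR, and mt-Atp8 was the only mRNA of the 13 that did (log2FC 0.64, edgeR adjusted p = 0.00154). At an unadjusted p under 0.05 there was 1 member. The share of all tested genes under this limit is not given here, so nothing is concluded from it. The log2FC was then between -0.13 and -0.06 for mt-Nd1, mt-Nd2, mt-Nd3 and mt-Nd4, 0.18 for mt-Nd5, 0.18 for mt-Nd6 and 0.39 for mt-Nd4l (SE 0.166, edgeR adjusted p = 0.074). Among the members themselves, the shares of some differed between the ages and those of others overlapped. mt-Nd5 took 6.49 ± 0.058% of the members' counts at 6m and 7.54 ± 0.26% at 24m (± SD over 4 mice per age), without overlap. That of mt-Nd6 was 6.65 ± 0.29% and 7.725 ± 0.36%, and did not overlap either. The share of mt-Nd4l was 5.70 ± 0.50% and 7.62 ± 0.68%, also without overlap, and that of mt-Nd1 29.1 ± 0.78% and 27.3 ± 1.01%, with overlap (± SD over 4 mice per age).

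The pairs that share an mRNA or bases differed in whether their balance changed with age. For every 100 reads on mt-Nd4, the young adult libraries held 25.7, 26.8, 25.8 and 24.4 reads on mt-Nd4l and the aged libraries 34.9, 39.5, 38.3 and 34.3. All aged libraries thus lay well above all young adult libraries, with means of 36.8 ± 2.55 and 25.7 ± 0.98 (± SD over 4 mice per age), a difference of 11.1 (exact permutation test, two-sided, p = 0.029, the smallest this design allows, and 0.043 with Benjamini-Hochberg adjustment over 3 such ratios). Leaving out any library gave a difference between 10.2 and 11.9. mt-Atp8 and mt-Atp6, the other pair of overlapping reading frames on a shared mRNA, gave 49.7 ± 3.67 and 66.5 ± 2.13 reads of mt-Atp8 per 100 of mt-Atp6 (± SD over 4 mice per age; difference 16.7, exact permutation test, two-sided, p = 0.029, adjusted p = 0.043). In both pairs reads on the upstream frame became more frequent relative to those on the downstream frame. A read that spans both frames overlaps both genes, and how such reads were assigned is not stated in the sources used here. On chromosome 18, Pcdhga1, Pcdhgb1 and Pcdhgb2 had the same mean count (123.12) and the same mean CPM (78.7 at 6m, 206.2 at 24m). Equal values of this kind can arise where a read counts for every gene it overlaps. If so, the ratios depend on how far reads reach upstream from the 3′ end, which was not tested. mt-Nd4l and mt-Nd4 would then share reads. Counts of members and correlations that include both may therefore not rest on separate measurements. Read lengths and read ends were not analysed here. The 3 ratios were chosen after the counts had been seen. The adjustment over 3 ratios does not cover that choice, so their p-values serve as description only.

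**Figure D3:**
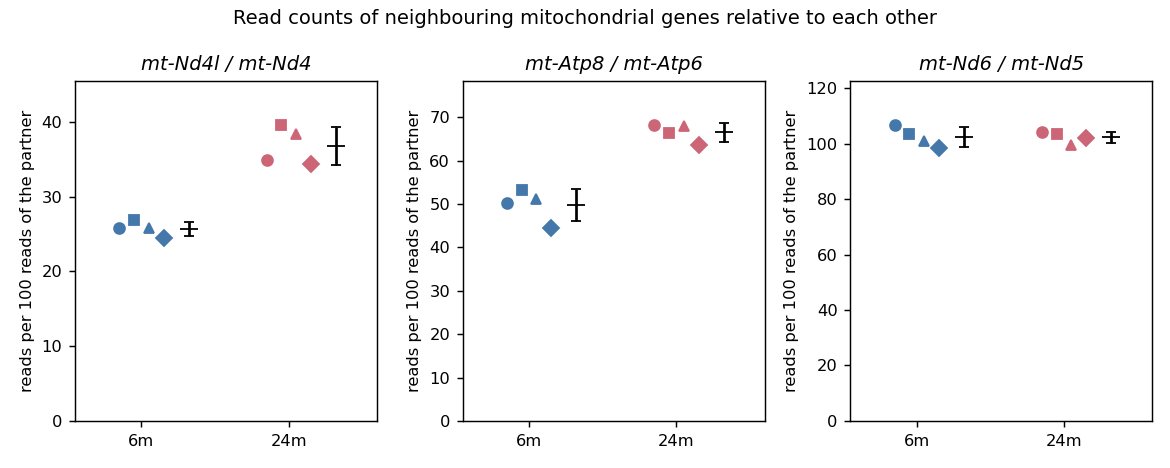
Reads of the first gene per 100 reads of the second (y axes from 0) in each library, for the pairs mt-Nd4l and mt-Nd4, mt-Atp8 and mt-Atp6, and mt-Nd6 and mt-Nd5. Circles, squares, triangles and diamonds are replicates 1 to 4 at 6m (blue) and 24m (red), and black bars are mean ± SD; the ages are apart in the first 2 panels, and all 8 libraries lie near 100 in the third.

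mt-Nd6 gave 106.7, 103.5, 101 and 98.4 reads per 100 reads of mt-Nd5 at 6m and 104, 104, 99.7 and 102 at 24m. The counts of the 2 genes were thus nearly equal in every library, although they are read from opposite strands, and the ratio did not differ detectably between the ages (102 ± 3.52 and 102 ± 1.97, SD, n = 4 each; exact permutation test, two-sided, p = 0.97). The strand setting of the counting is not stated in the sources used here. If it ignored strand, reads of the extended mt-Nd5 mRNA and of mt-Nd6 cannot be told apart, and the values given for mt-Nd6 are uncertain as a measure of the light-strand mRNA. The 2 genes may then hold largely the same reads. Counts of members, shares and correlations that include both may therefore not rest on separate measurements.

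The nuclear-encoded side of complex I also had mostly negative log2FC. Of the 37 nuclear subunits listed, all were tested, 35 had a negative log2FC and 18 were lower with an adjusted p at most 0.05 (edgeR), where 50.3% of all tested genes were negative and 9.42% were lower by this limit. The subunits had a median log2FC of -0.28 and a range from -0.54 to 0.09. The core subunits Ndufs1 (log2FC -0.54, adjusted p = 0.0175), Ndufv1 (log2FC -0.31, adjusted p = 0.0219) and Ndufs7 (log2FC -0.25, adjusted p = 0.05), which carry the redox centres or flank them, fell in edgeR's test. Among the supernumerary subunits, Ndufa13 fell from 1142 ± 58 to 787 ± 46 CPM and Ndufa2 from 663 ± 36 to 472 ± 21 CPM (± SD over 4 mice per age; log2FC -0.54 and -0.49). Ndufc1 (log2FC -0.44) and Ndufa11 (log2FC -0.42) fell too. Assembly factors had a median of -0.26 over 14 tested genes, of which Ndufaf1 (log2FC -0.74, edgeR adjusted p = 0.00582) and Ndufaf2 (log2FC -0.66, edgeR adjusted p = 0.0111) were called lower and Ndufaf5 (log2FC -0.46) passed on adjusted p alone. Among all tested genes 4.17% were called lower.

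Genes that handle mitochondrial DNA and RNA were examined beside the members. Of 17 tested factors of RNA processing and stability, 4 were called lower, where 4.17% of all tested genes were called lower, and the median of all 17 was -0.28. Pnpt1, the mitochondrial polynucleotide phosphorylase, fell from 12.8 ± 5.39 to 3.40 ± 1.14 CPM (± SD over 4 mice per age; log2FC -1.96, SE 0.445, edgeR adjusted p = 0.00277). At this depth the aged level of Pnpt1 rests on only a few reads per library. Lrpprc, which binds mitochondrial mRNAs and keeps them stable and polyadenylated, fell from 62.3 ± 12.4 to 34.97 ± 12.4 CPM (± SD over 4 mice per age; log2FC -0.76, SE 0.206, edgeR adjusted p = 0.0106). The others were Fastkd2 (log2FC -0.95, adjusted p = 0.0405), an RNA-binding protein of mitochondrial RNA granules, and Elac2 (log2FC -0.58, adjusted p = 0.0446), which cuts the 3′ ends of mitochondrial tRNAs. The transcription factors and polymerase had a median of -0.32 over 6 tested genes, with Polrmt, the mitochondrial RNA polymerase, at -0.16 (SE 0.214) and Mterf2 at -0.45 (SE 0.362), and the smallest adjusted p of this group was 0.346 (Mterf4, edgeR). The replication factors had a median of -0.28 over 5 tested genes, with a smallest adjusted p of 0.175 (Ssbp1, log2FC -0.61). With an SE of 0.362 for a gene such as Mterf2, a log2FC of the size seen for the members was not detectable at this depth.

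**Figure D4:**
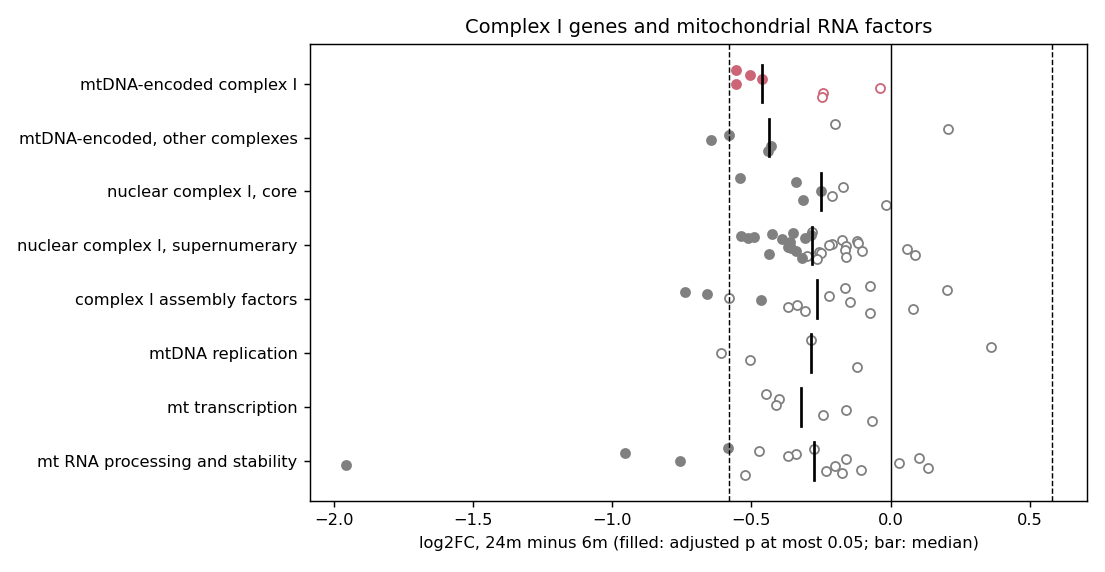
log2FC (24m minus 6m) of every tested gene in 8 groups, with filled points at an adjusted p of at most 0.05, black bars at group medians and dashed lines at ±0.58. The medians of the mitochondrially encoded groups, -0.46 and -0.44, lie below those of the nuclear-encoded groups, which lie between -0.32 and -0.25.

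The nuclear genes with a mean count over 50 whose log2 CPM was most like the summed level of the members over the 8 libraries were Ndufs1 (Pearson r = 0.940), the large iron-sulfur subunit of complex I, Slc45a1 (0.939), a sugar transporter, Smap1 (0.932), a GTPase-activating protein of membrane traffic, Mycbp2 (0.925), a ubiquitin ligase, and Psma1 (0.923), a proteasome subunit. These values describe 8 libraries that share the difference between the ages and their scaling. After subtraction of the age means r was between 0.846 and 0.899 for the 5 genes.

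Markers of the cell types in the tissue also moved between the ages. The summed level of 7 neuronal markers, all of them tested, was 2387 to 2533 CPM at 6m and 2831 to 2853 CPM at 24m, and 5 of them were higher and 1 lower at an adjusted p of at most 0.05 (edgeR). That of 7 astrocytic markers was 427 to 533 CPM at 6m and 638 to 751 CPM at 24m, of 7 oligodendrocytic markers 2004 to 2574 and 2777 to 3638 CPM, and of 8 microglial markers 560 to 630 and 687 to 869 CPM, each without overlap. By the same limit 3 of 6 tested astrocytic, 5 of 7 oligodendrocytic and 2 of 6 tested microglial markers were higher. Lower were 1 astrocytic marker (Slc1a2, log2FC -0.59), 1 of 2 tested endothelial and 1 of 4 choroid or ependymal markers. The lower neuronal marker was Tubb3 (log2FC -0.30). Of all 9375 tested genes, 1155 were higher and 883 lower by this limit. The 5 blood genes were all called lower, against 4.17% of all tested genes. Their summed level was 6090 to 10032 CPM at 6m and 3350 to 6283 CPM at 24m. Endothelial markers had a summed level of 84.98 to 117 CPM at 6m and 62.1 to 91.5 CPM at 24m, markers of choroid plexus and ependyma 3092 to 4592 and 2390 to 4599 CPM, and oligodendrocyte progenitor markers 6.28 to 12.4 and 7.67 to 14.6 CPM. None of the listed markers was at 0 in all libraries, and the part of cell composition in the members' values was not tested.

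**Figure D5:**
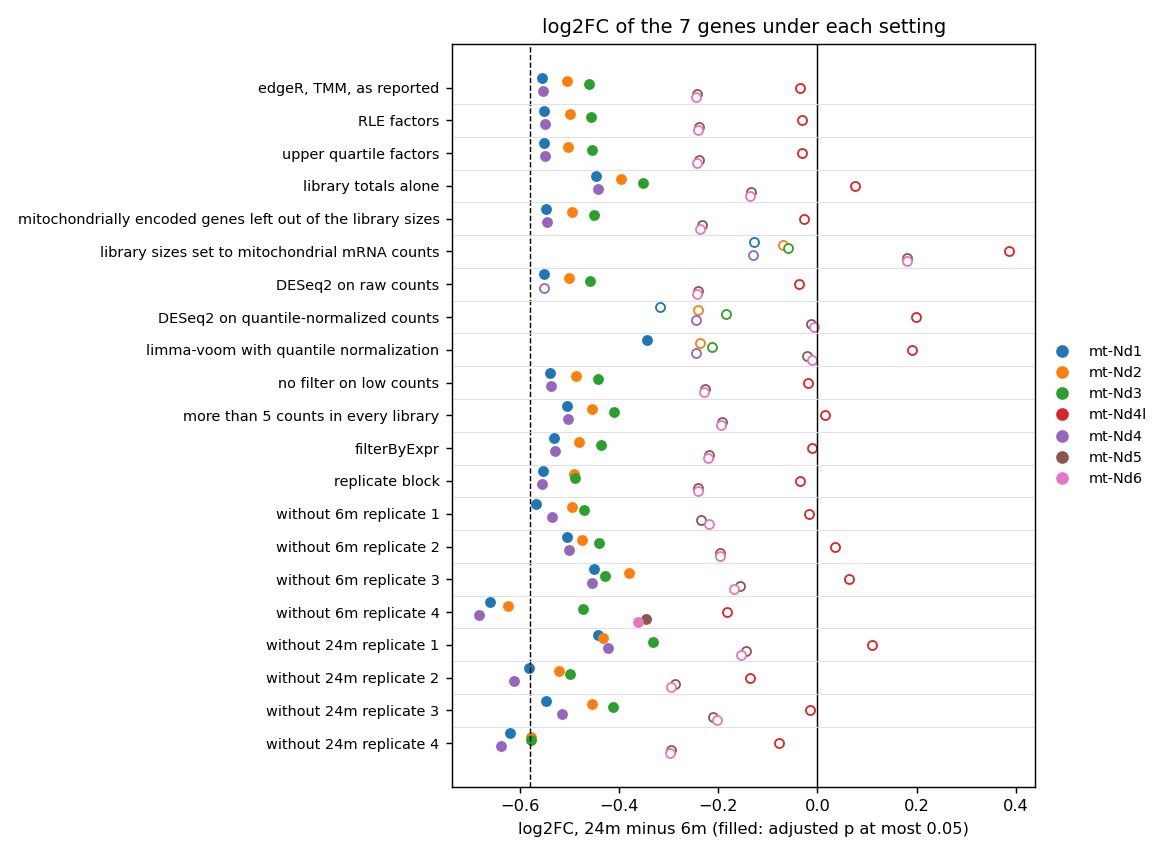
log2FC (x axis, 24m minus 6m) of the 7 members under each setting (rows), filled at an adjusted p of at most 0.05, with the dashed line at -0.58. mt-Nd1, mt-Nd2, mt-Nd3 and mt-Nd4 are negative in every row and lose the filled mark with quantile normalization or relative to the mitochondrial mRNA pool (mt-Nd1 keeps it in limma-voom, and mt-Nd4 also loses it with DESeq2 on raw counts), and mt-Nd4l changes sign.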

How the data were processed

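The authors deposited a table of raw counts, made from MinION direct RNA reads that were mapped to GRCm39 with minimap2 (2.24 in the submitters' processing notes) and counted with featureCounts. Strand, overlap and multi-mapping settings are not given in the sources used here. No mitochondrial rRNA or tRNA was analysed here.

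Genes were named from GENCODE vM39 (22281 of 22430 matched) and mitochondrial sequences read from GRCm39. Testing was limited to genes whose mean count exceeded 5 and used R 4.3.3 with edgeR 4.0.16 (TMM, quasi-likelihood, age as the only term), with DESeq2 1.42.0, limma 3.58.1 (voom), other scalings, filters, a replicate block and each library left out as alternatives. Standard errors come from log2FC and F. Nuclear copies were searched with BLAST+. The fits were also run on simulated counts with known changes, and the outcome is not given here.

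The members, gene lists and rules were chosen with earlier results of these data known. Named nuclear genes are at most 4 per list with the smallest p, and the 5 most alike in log2 CPM (prior count 2). Libraries within an age differed by more than sampling noise (chi-square per degree of freedom 1.18 to 3.92). Each library comes from another mouse.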

Additional observations from a re-analysis of the deposited data

Results flagged for a closer look

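Values of the members, their shares and ratios and the library totals were searched, at each age, for a library far from the other 3 with Dixon's ratio of gap to range (limit 0.829). Chance alone flags about 1 in 20 groups, and here 2 of 42 groups of 4 exceeded the limit. The share of mt-Nd4 in the members' counts was 20.3% in young adult replicate 4, against 22.6% to 23.0% in the other young adult libraries. The total count of young adult replicate 2 was 573152, against 818963 to 843706 in the others of its age.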

How the results depend on the processing

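The log2FC of mt-Nd1, mt-Nd2, mt-Nd3 and mt-Nd4 stayed negative under all 20 alternatives, and without any single library each kept an adjusted p at most 0.05. The count of members called lower, 0 as reported, was 4 by adjusted p alone and 0 to 3 with a library left out. mt-Nd4l turned positive with library totals alone (0.076), relative to the mitochondrial pool (0.39), with quantile normalization (0.20 in DESeq2, 0.19 in limma-voom) and with more than 5 counts in every library (0.016), and lay between -0.18 and 0.11 with a library left out. mt-Nd5 (0.18) and mt-Nd6 (0.18) turned positive relative to the pool. The difference in mt-Nd6 per 100 mt-Nd5 lay between -1.32 and 1.45 with a library left out, and that of the members' share of the pool between -1.03 and 0.09 percentage points. Library totals alone moved the median of all genes to 0.10, and the pool moved it to 0.40, with the members at a median of -0.35 and -0.06. Over all genes, 968 were called higher and 391 lower. These counts became 629 and 205 with DESeq2, 605 and 196 with DESeq2 after quantile normalization, 2486 and 52 relative to the pool, 1218 and 223 with library totals alone, and 701 and 484 with limma-voom. There were 222 lower with more than 5 counts in every library and 883 lower by adjusted p alone. The share of higher genes was 71.2% as reported, 84.5% with library totals, 98.0% relative to the pool and 59.2% with limma-voom. The cause was not tested. With a replicate block 940 were higher and 368 lower and no member's call changed. Deviations of same-numbered libraries had r between -0.16 and 0.0647, so the numbers were not taken as pairs. Depth limits the low-count nuclear factors more than the members.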

Other observations

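Nuclear genes that are often read as measures of mitochondrial mass did not move in a single direction. Of 8 such genes tested, with a median log2FC of -0.10, Cs, the citrate synthase of the matrix, rose from 121.5 ± 16.9 to 174 ± 13.3 CPM (± SD over 4 mice per age; log2FC 0.52, edgeR adjusted p = 0.0045). Vdac1, a pore of the outer membrane, rose from 462 ± 19.2 to 551 ± 30.8 CPM (log2FC 0.26, edgeR adjusted p = 0.037). Hspd1, the matrix chaperonin, was called lower (log2FC -0.63, edgeR adjusted p = 0.00528), and Vdac2 had a log2FC of -0.20 (edgeR adjusted p = 0.123). Of the regulators of mitochondrial biogenesis only Esrra (log2FC 0.17, SE 0.169) and Nrf1 (log2FC 0.40, SE 0.444) were abundant enough to be tested among 5 listed.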
